A study of Sus scrofa with 3 samples.

Results

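Large White liver was set against the livers of both Chinese groups, the Enshi black pig and the Chinese wild boar, and microRNAs (miRNAs) were described where the Large White library lay on the same side of both. Of 208 miRNAs compared, out of 405 mature names, 12 were at least 2-fold higher in the Large White library than in both others and 4 were at least 2-fold lower, after scaling by the trimmed mean of M-values (TMM). All livers were from males aged 90 days, and 1 small RNA library stood for each of the Large White, a European commercial breed, the Enshi black, a Chinese domestic breed, and the Chinese wild boar. The groups share sex, age and tissue, and the labels name no treatment. The labels speak of 3 male pigs and 3 liver samples and do not say whether a library pools animals, so a difference between breeds and a difference between animals cannot be told apart. With 1 library per breed there is no test, and every interval is an exact 95% interval that covers counting error only. Both comparisons share the Large White library, so any peculiarity of that library moves both in the same direction.

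A miRNA is cut from a hairpin precursor, and its 5p and 3p arms lie on opposite strands of that hairpin. The mature strand guides the silencing of messenger RNAs that match its seed. Hepatocytes are dominated by miR-122, which is needed for lipid metabolism, and by miR-192 and miR-194. Endothelial cells, stellate cells, blood cells and smooth muscle each add miRNAs of their own to a liver library. Neighbouring precursors are often transcribed together, so their mature miRNAs share a transcript but not necessarily their processing or stability.

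The deposited read counts per library were between 7350179 and 7837309. The 4 hepatocyte markers miR-122, miR-885-5p, miR-192 and miR-194a together held 50.8% of the Large White reads, 41.0% of the Enshi black reads and 47.4% of the wild boar reads, and none was at 0. The 5 leucocyte markers that could be matched held 1.61%, 1.31% and 0.393% (Large White, Enshi black, wild boar), and the 3 red cell markers 0.411%, 0.494% and 0.336%. In the Large White library 95697 of the 118008 leucocyte marker reads were miR-142-3p, which is itself among the miRNAs called higher. As shares of all reads, miR-142-5p, miR-155-5p, miR-146a-5p and miR-150 had log2 ratios of −0.08, −0.01, −0.57 and −0.81 over the Enshi black library. Over the wild boar library they had 1.60, 0.24, 0.88 and 1.13. The endothelial pair miR-126-3p and miR-126-5p held 0.779%, 1.96% and 1.31%, and the 4 smooth muscle and stellate markers 2.44%, 5.10% and 3.66%. In bulk tissue, fewer cells of a type and less of a miRNA per cell cannot be told apart. The parts of these cell types in the differences below were not tested.

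The choice of scaling decides how many miRNAs fall on each side. After TMM scaling, the 12 higher miRNAs were 5.77% and the 4 lower ones 1.92% of the miRNAs compared. Each pair gave a wider list. Against the Enshi black library alone 10.1% were at least 2-fold higher and 2.88% lower in the Large White, and against the wild boar library 13.5% were higher and 11.5% lower. Median log2 ratios over all 208 were 0.04 for Large White over Enshi black and 0.02 for Large White over wild boar. On library totals those medians were −0.60 and −0.46, and the count became 3 higher (1.44%) and 28 lower (13.5%). For the pairs, 2.88% were then higher and 27.4% lower against the Enshi black library, and 9.13% and 21.6% against the wild boar library. The 3 were miR-101, miR-190a and miR-3613, which were called under both scalings, as were all 4 lower miRNAs, miR-758, miR-370, miR-15b and miR-490. At any size of difference, 87 miRNAs (41.8%) lay above both others and 80 (38.5%) below both after TMM scaling, against 35 (16.8%) and 141 (67.8%) on library totals. These counts use the side of the ratios only and do not ask that the intervals leave out 1. By the same 2-fold rule after TMM scaling, 1 miRNA (0.481%) was higher and 3 (1.44%) were lower in the Enshi black library than in both others, and 10 (4.81%) and 10 (4.81%) in the wild boar library. On library totals the Enshi black library had 6 (2.88%) higher and 0 lower, and the wild boar library 7 (3.37%) and 7 (3.37%).

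**Figure D1:**
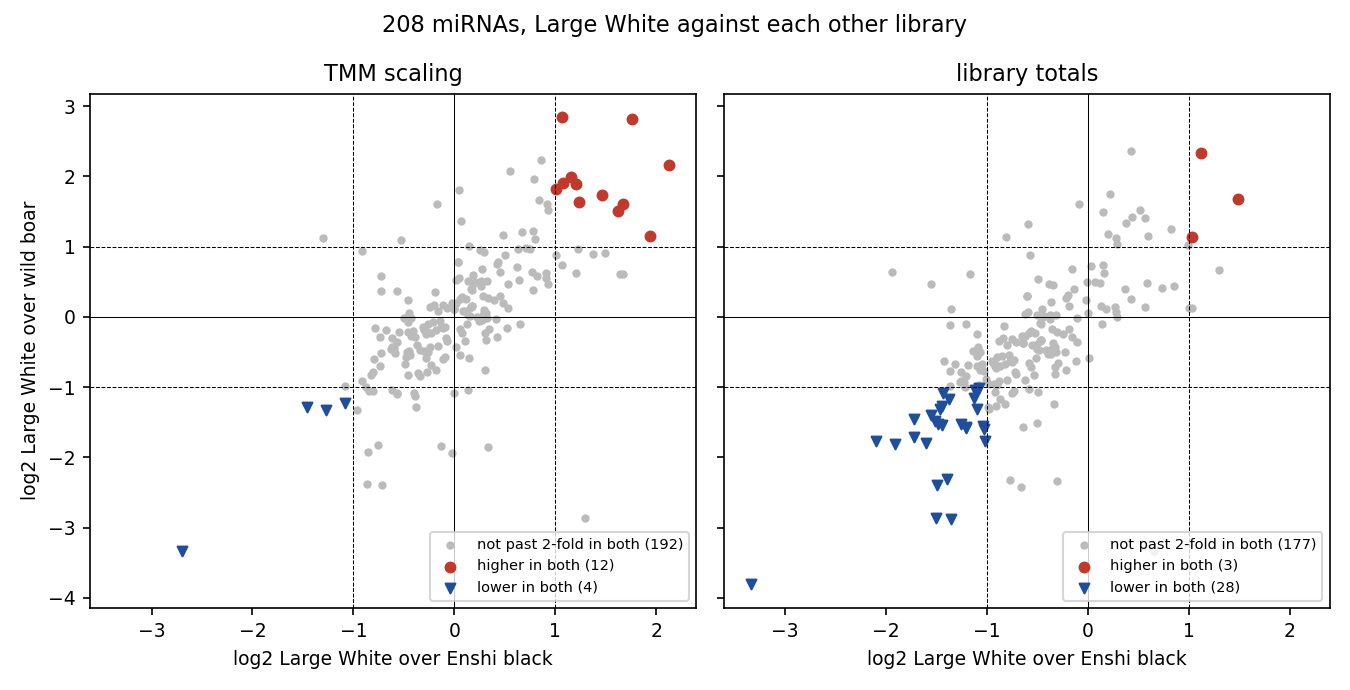
Each point is 1 of the 208 miRNAs, placed by the log2 ratio of Large White over Enshi black (x axis) and over wild boar (y axis), with 2-fold as dashed lines. The left panel uses TMM scaling, with 12 miRNAs higher and 4 lower in both pairs, and the right panel library totals, with 3 and 28; the axes share the Large White library.

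Among the 12 higher miRNAs, miR-101 carried most of the reads. miR-101, an abundant liver miRNA that represses the histone methyltransferase EZH2, had 768901 reads in the Large White, 395049 in the Enshi black and 374118 in the wild boar library. Those counts were 10.5% of the Large White reads (exact Clopper-Pearson interval 10.4 to 10.5), 5.11% of the Enshi black and 4.78% of the wild boar reads. The other two libraries lay close together, with a log2 ratio of Enshi black over wild boar of −0.06, while the Large White stood 1.61 above the nearer of them. Both precursors of miR-101 gave the same picture, with log2 ratios over Enshi black of 1.67 and 1.68. Reads of the same mature miRNA cannot be assigned to a precursor with certainty, so these are not independent values. In the Large White library the precursors had 388738 and 380163 reads, which are nearly equal. The labels and headers do not say whether a read that matches both is split between them or counted on each. If counted on each, the miR-101 reads, shares and ratios to miR-122 would be too high in every library. In RefSeq the precursors lie within RCL1 and JAK1, at separate places in the genome. Set against miR-122 in the same library, which needs no scaling factor, miR-101 had 25.3 reads per 100 miR-122 reads in the Large White (25.2 to 25.4), 14.9 in the Enshi black and 12.1 in the wild boar library.

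miR-22-3p, which is linked to hepatic glucose and lipid metabolism, followed the same layout. It stood at 16631 CPM (counts per 1000000 after TMM scaling) in the Large White, 5386 in the Enshi black and 5872 in the wild boar library. The Enshi black and wild boar values differed by −0.12 on the log2 scale, and the Large White lay 1.502 above the nearer. On library totals it was 1.98-fold above the Enshi black library (1.96 to 2.01) and 2.03-fold above the wild boar library (2.01 to 2.05). Its partner arm miR-22-5p had 1680, 1367 and 1358 reads and was 2.01-fold and 1.84-fold higher in the Large White after TMM scaling. The excess of the 3p arm was larger in the Large White library, where miR-22-3p had 56.1 reads per miR-22-5p read (53.5 to 59.0), than in the Enshi black (36.6) or wild boar library (36.5).

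miR-3613 and miR-190a, both of low abundance, had the widest distance to the nearer library among the 12 after TMM scaling. miR-3613, a little studied miRNA, had 309 reads in the Large White, 116 in the Enshi black and 103 in the wild boar library. It was 4.36-fold above the Enshi black library (3.51 to 5.45) and 4.46-fold above the wild boar library (3.56 to 5.63), the only 1 of the 12 past 4-fold in both. miR-190a, whose precursor lies within the talin gene TLN2 in RefSeq, had 972, 471 and 205 reads. Its Large White value was 3.38-fold above the Enshi black (3.02 to 3.78) and 7.05-fold above the wild boar library (6.06 to 8.23), and the Chinese libraries differed from each other by 1.06 on the log2 scale. Both stayed past 2-fold on library totals, with log2 ratios to the nearer library of 1.49 for miR-3613 and 1.12 for miR-190a.

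miR-215, miR-29b and miR-144 belong to well known families or clusters. miR-215 shares its seed with miR-192 and is induced by p53. It had 2371 reads in the Large White, 1412 in the Enshi black and 1062 in the wild boar library, and part of its reads are shared with another name. miR-192 itself, with 383578, 268332 and 292150 reads, was just outside the threshold at 0.96 above the nearer library. miR-29b, a repressor of collagen genes that also holds shared reads, stood at 3980, 1785 and 998 CPM. miR-144, a red cell miRNA that acts on the antioxidant regulator NRF2, stood at 1536, 665 and 413 CPM. For each of the 3 miRNAs the Large White was the highest library, the Enshi black the middle and the wild boar the lowest.

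The other higher miRNAs were miR-1285, miR-671-5p, miR-545-3p, miR-142-3p and miR-7. miR-1285 was the only 1 of the 12 with the wild boar clearly above the Enshi black library, at 13411 reads in the Large White, 5727 in the Enshi black and 8962 in the wild boar library. miR-142-3p, which marks cells of the blood lineage, had 95697, 74824 and 19777 reads, so its Enshi black and wild boar values were further apart (1.78 on the log2 scale) than the Large White and Enshi black values (1.07). In the other 11 the Large White lay further from the nearer library than the Chinese libraries lay from each other. Of all 208, 96 had this layout on either side. The 2-fold rule itself favours such a layout, so this only describes the 12. miR-7, which is abundant in endocrine and neural cells and restrains insulin secretion, had 3292, 2674 and 1390 reads and sat just inside the threshold at 1.01 above the Enshi black library. miR-671-5p had 469, 326 and 225 reads and miR-545-3p 404, 313 and 161.

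The 12 higher miRNAs together held 13.8% of the Large White reads (13.7 to 13.8), 7.16% of the Enshi black reads (7.14 to 7.18) and 5.97% of the wild boar reads (5.96 to 5.99). These shares rest mostly on miR-101 and would be lower if its reads were counted on both of its precursors. Nearest inside the threshold, after miR-7, were miR-142-3p and miR-545-3p at 1.07 and 1.08 on the log2 scale above the nearer library. Nearest outside, after miR-192, were miR-542-3p and miR-19a at 0.93 and 0.92.

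**Figure D2:**
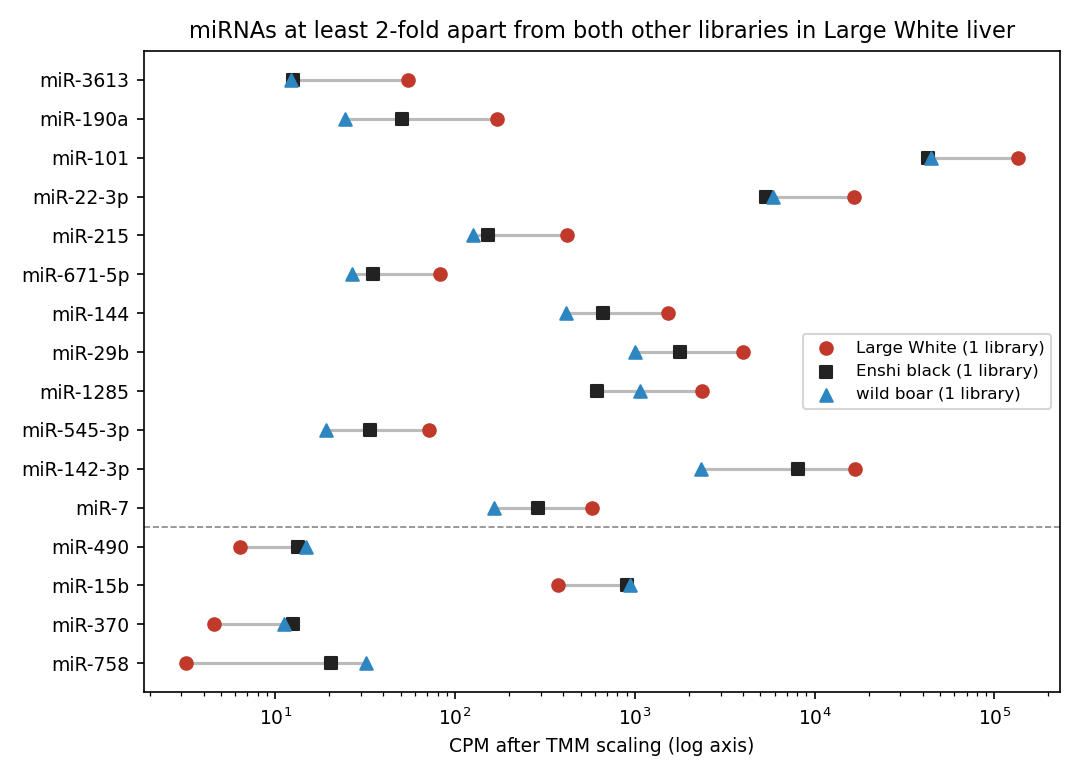
Each row is 1 of the 16 miRNAs and each point its CPM after TMM scaling in 1 library, on a log axis; the dashed line parts the 12 higher from the 4 lower. miR-101 runs from 42525 CPM in the Enshi black to 135568 CPM in the Large White library, and miR-758 from 3.17 CPM in the Large White to 31.9 CPM in the wild boar library.

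Of the 4 lower miRNAs, miR-15b was the abundant one. miR-15b represses cell cycle and survival genes such as BCL2, and its precursor lies within SMC4 in RefSeq. It had 2120 reads in the Large White, 8390 in the Enshi black and 7941 in the wild boar library. Set against the Large White, Enshi black was 2.42-fold (2.30 to 2.54) and wild boar 2.52-fold (2.40 to 2.64) higher, while the Chinese libraries were within −0.06 of each other on the log2 scale. On library totals the folds were 3.76 and 3.52. Part of the miR-15b reads are shared with another name.

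The other three lower miRNAs were scarce in the Large White library. miR-758, of the imprinted DLK1-DIO3 cluster and a repressor of the cholesterol exporter ABCA1, had 18 reads in the Large White, 191 in the Enshi black and 269 in the wild boar library. Enshi black was 6.48-fold (3.99 to 11.2) and wild boar 10.1-fold (6.24 to 17.2) above the Large White. miR-370, of the same cluster and a repressor of the fatty acid oxidation gene CPT1A, had 26, 117 and 94 reads. miR-490, whose precursor lies within the muscarinic receptor gene CHRM2 in RefSeq, had 36, 125 and 125 reads. These 3 had 3.17, 4.58 and 6.35 CPM in the Large White library and reached the minimum of 10 mean CPM only because of the other libraries. They therefore had to be lower there than in at least 1 of the others. Just outside the threshold were miR-10b, miR-505 and miR-139-5p at −0.98, −0.96 and −0.91 to the nearer library.

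On library totals the lower side also took in 24 further miRNAs. The 8 with the widest distance to the nearer library among them were miR-505, miR-127, miR-331-3p, miR-222, miR-148b-5p, miR-10b, miR-30c-5p and miR-374b-5p, at log2 ratios from −1.60 to −1.40. miR-222, which promotes proliferation and is raised in activated stellate cells, had 4650 reads in the Large White, 13982 in the Enshi black and 13879 in the wild boar library. miR-30c-5p, which lowers lipoprotein secretion, had 3729, 10711 and 11551 reads. miR-505 had 687, 2194 and 2549 reads, and miR-10b, of the HOX clusters, 268, 932 and 786. In each of these 4 the Chinese libraries lay within 0.36 of each other on the log2 scale after TMM scaling, and the Large White library alone was low. miR-127, of the DLK1-DIO3 cluster, had 424, 1269 and 3288 reads, so there the Chinese libraries also differed from each other, by −1.51.

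Group counts are to be read beside the shares of all 208 miRNAs, of which 41.8% lay above both other libraries and 38.5% below both after TMM scaling, and 16.8% and 67.8% on library totals. Counts above both or below both use the side of the ratios only, so they include differences within counting error. Grouped by the cell type or pathway they are known from, the hepatocyte-enriched miRNAs leaned to the Large White library. Of 14 compared, 11 lay above both other libraries and 3 below both, and only miR-101 was past 2-fold in both. The group's median log2 ratio was 0.75 over Enshi black and 0.53 over wild boar, beside 0.04 and 0.02 for all miRNAs. miR-122 had 0.91 and 0.55, miR-192 1.23 and 0.96, miR-194a 0.93 and 0.47, and miR-885-5p 1.49 and 0.92. The 3 below both were miR-365-3p at −0.01 and −1.09, miR-455-3p at −0.11 and −0.60, and miR-193a-5p at −0.43 and −0.27. On library totals the medians were 0.11 and 0.05, beside −0.60 and −0.46 for all miRNAs, with 7 of the 14 above both others and 5 below both. On those totals miR-194a had 0.29 and −0.01 and miR-148a-3p −0.34 and −0.38.

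The endothelial group leaned the other way. It is a wider list than the endothelial markers miR-126-3p and miR-126-5p, and whether its members come from endothelial cells here was not tested. Of 11 compared, 9 lay below both other libraries (38.5% of all 208 did) and none above both, with medians of −0.62 over Enshi black and −0.23 over wild boar and no member past 2-fold in both. miR-126-5p had −0.80 and −0.79, miR-100 −0.62 and −0.43, and miR-23a −0.59 and −0.45. The exceptions were miR-125b at 0.28 and −0.05 and miR-99a at 0.32 and −0.02. On library totals all 11 lay below both other libraries, as did 67.8% of all 208, and miR-126-5p and miR-10b were past 2-fold. The smooth muscle and stellate group had 8 of 11 below both, with medians of −0.28 and −0.20. miR-199a-5p had −0.46 and −0.22 and miR-143-3p −0.43 and −0.02, and miR-145-3p alone lay above both, at 0.29 and 0.93. On library totals 10 of the 11 lay below both, and miR-145-3p had −0.35 and 0.45.

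The DLK1-DIO3 cluster, an imprinted region expressed in fetal tissue and mesenchyme, had 19 of its listed names in the files, of which 6 passed the minimum. Of these 6, 5 lay below both other libraries, and miR-758 and miR-370 were past 2-fold in both, beside 38.5% and 1.92% of all 208. However, 4 of the 6, miR-758, miR-370, miR-299 and miR-369, were below 10 CPM in the Large White library and reached the minimum only because of the others. These 4 therefore had to be lower there than in at least 1 of the others. The group's count and medians rest on them and are a description only. miR-299 had 32, 86 and 250 reads and miR-369 log2 ratios of −0.38 and −1.28. For miR-369 the interval of the fold over Enshi black, 0.55 to 1.07, includes 1. miR-136 was the exception at 0.63 over Enshi black and 0.97 over wild boar, where it had −0.01 and 0.49 on library totals. Medians of the 6 were −0.79 and −1.83.

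The 3 striated muscle miRNAs above the minimum lay above both other libraries after TMM scaling, without reaching 2-fold in both. miR-1 had 584 reads in the Large White, 526 in the Enshi black and 185 in the wild boar library, and miR-499-5p 1455, 1413 and 1105. On library totals miR-133a-3p lay below both, at −0.10 and −0.02. The leucocyte group was mixed. Of 10 compared, 5 lay above both and 3 below both, near the 41.8% and 38.5% of all 208, with medians of −0.05 over Enshi black and 0.92 over wild boar. miR-142-3p was past 2-fold above both, miR-155-5p had 0.62 and 0.72, and miR-181a, miR-181b and miR-139-5p lay below both, at −0.49, −0.58 and −0.92 over Enshi black. On library totals only miR-142-3p lay above both, miR-155-5p had −0.01 over Enshi black, and miR-181a and miR-139-5p were past 2-fold below both. Of 6 red cell miRNAs compared, 4 lay above both and 1 below both, with miR-144 past 2-fold and miR-451 at 0.13 and 0.51. On library totals 1 of the 6 lay above both and 2 below both, with 0 past 2-fold in both, and miR-451 had −0.50 and 0.03.

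**Figure D3:**
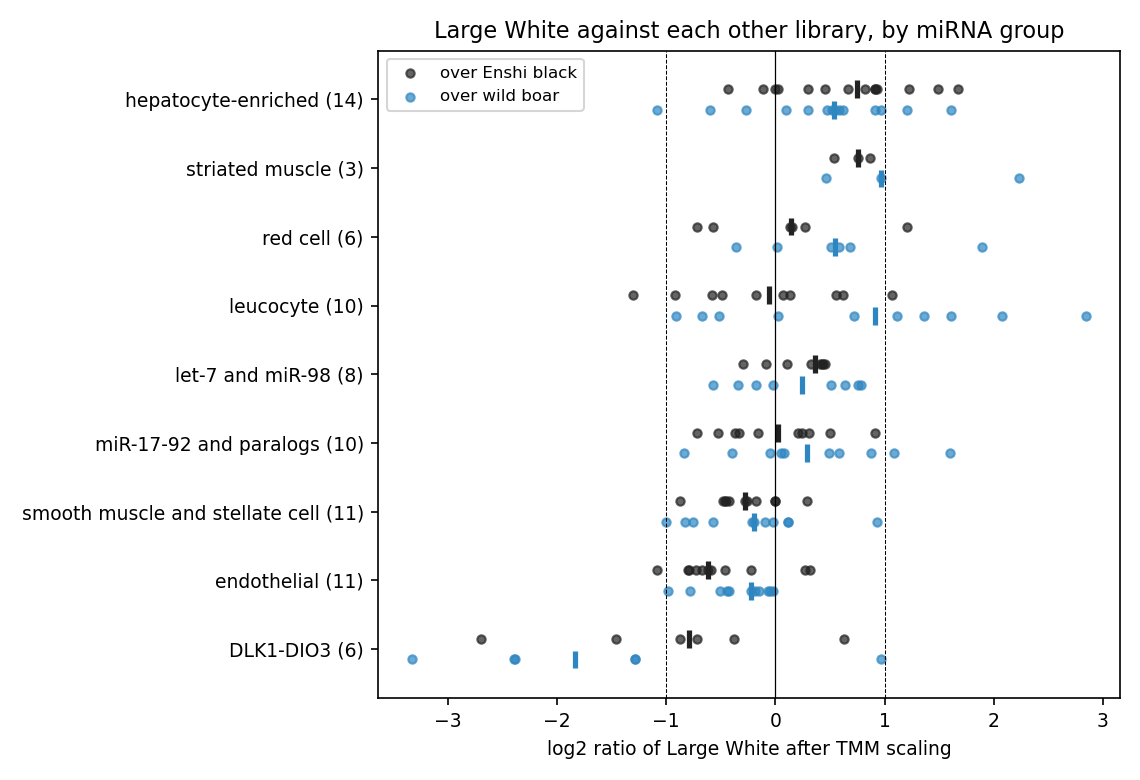
Each point is the log2 ratio of Large White over Enshi black (dark) or over wild boar (blue) of 1 miRNA after TMM scaling; thick ticks are group medians and numbers in brackets the miRNAs compared. Medians are 0.75 and 0.53 for the hepatocyte-enriched group and −0.79 and −1.83 for the DLK1-DIO3 group; on library totals every ratio over Enshi black would be lower by 0.64 and every ratio over wild boar by 0.48.

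In other groups the counts on either side lay near those of all 208 (41.8% above both and 38.5% below both), changed with the scaling, or both. The miR-17-92 cluster and its paralogs, which drive proliferation, had 4 of 10 above both and 2 below both, and 1 and 5 on library totals. miR-19a had 0.92 and 1.60, while miR-17-5p had −0.37 and −0.40 and miR-92a −0.34 and −0.84. The let-7 family, repressors of growth genes, had 4 of 8 above both and 2 below both, and 0 and 4 on library totals. let-7f had 0.44 and 0.79, and let-7e had −0.09 and −0.57. The miR-15 and miR-16 family held miR-15b and, of 7 compared, 2 above both and 3 below both, and 0 and 6 on library totals. The glucose and insulin group held miR-22-3p, miR-29b and miR-7 past 2-fold above both, of 13 compared, beside 5.77% of all 208. On library totals 0 of the 13 were past 2-fold above both, and with DESeq2 size factors 2 were, without miR-7. The lipid and cholesterol group had miR-144 above and miR-758 and miR-370 below, of 15 compared, with 7 above both and 7 below both at any size. On library totals it had 0 past 2-fold above both and 3 below. The neural and endocrine group, which holds miR-7, had 2 of 6 above both and 1 below both, and 2 and 3 on library totals. After TMM scaling miR-184, miR-204 and miR-9 lay above Enshi black, at 1.30, 0.33 and 0.06, and below wild boar, at −2.86, −1.85 and −0.54.

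The partners of the 16 miRNAs, meaning the other arm of the precursor and neighbours within 10 kb in RefSeq, were not part of the rule. Of the 20 precursors of the 16 miRNAs, 14 were found in RefSeq, whose assembly (Sscrofa11.1) differs from that of the files and served only to find neighbours. There were 10 partners at 10 mean CPM or more that are not themselves among the 16. After TMM scaling 9 of these lay on the same side of both libraries as their member, 1 lay on the opposite side, and none was past 2-fold in both, beside 41.8% above and 38.5% below among all 208. On library totals 5 lay on the same side, 2 on the opposite side and 3 between, so the tally depends on the scaling. miR-374a-5p, a neighbour of miR-545, was on the opposite side under both scalings, and on library totals it was past 2-fold below both. miR-29a was on the same side after TMM scaling by only 0.09 and 0.08, and on library totals it had −0.55 and −0.40.

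Ratios of partners within a library need no scaling factor. miR-29b had 15.8 reads per 100 reads of its neighbour miR-29a in the Large White library (15.6 to 16.1), 7.54 in the Enshi black (7.42 to 7.66) and 4.205 for wild boar (4.11 to 4.30). Against its other neighbour miR-29c it had 142 reads per 100 in the Large White, 65.2 in the Enshi black and 61.2 in the wild boar library. Both ratios use all miR-29b reads, summed over its 2 precursors, 1 beside miR-29a and 1 beside miR-29c. These reads cannot be assigned to a precursor with certainty and may be counted on both, which would raise both ratios in every library. After TMM scaling miR-29b was the only member of this family past 2-fold in both, and on library totals none was. miR-144 had 42.2 reads per 100 reads of miR-451, the other red cell miRNA of its cluster, in the Large White (41.1 to 43.3), 20.04 in the Enshi black (19.5 to 20.6) and 16.2 for wild boar (15.6 to 16.8).

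The Large White library also stood apart in ratios within other clusters and between paralogs. miR-545-3p had 9.47 reads per 100 reads of miR-374a-5p in the Large White (8.53 to 10.5), 2.59 in the Enshi black (2.30 to 2.89) and 1.68 for wild boar (1.43 to 1.96). Part of the miR-374a-5p reads are shared with another name. miR-15b had 11.3 reads per 100 reads of its neighbour miR-16 in the Large White, 18.3 in the Enshi black and 22.2 in the wild boar library. The miR-16 reads are those of the mature name, summed over precursors, whereas the neighbour is the precursor mir-16-1. Against miR-15a, its paralog, it had 23.5, 64.4 and 89.3 reads per 100. miR-19a had 14.5 reads per read of miR-17-5p, of the same cluster, in the Large White, 5.96 in the Enshi black and 3.62 in the wild boar library. miR-15a, miR-17-5p and miR-122 were chosen as partners after their values were seen. Since the miRNAs counted were mostly chosen for their distance from both libraries, that the Large White stands apart in these ratios was largely fixed by that choice, and they are given as a description.

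**Figure D4:**
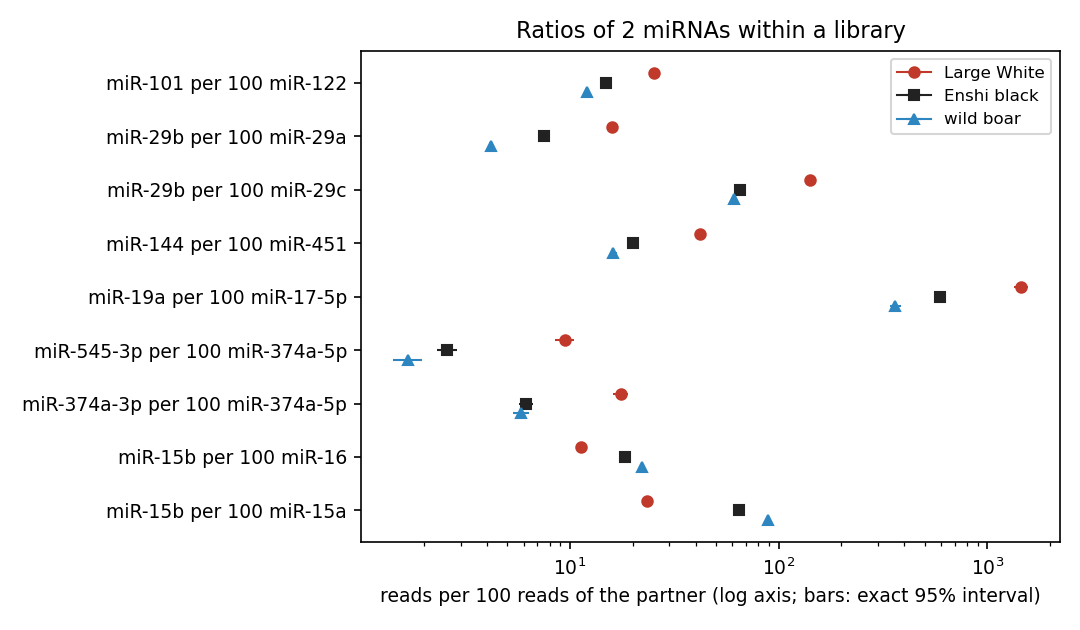
Each row gives the reads of 1 miRNA per 100 reads of another in the same library, on a log axis, with exact 95% intervals of counting error that are mostly narrower than the symbol. The Large White library is highest in the upper 7 rows, as in miR-29b per 100 miR-29a (15.8 against 7.54 and 4.205), and lowest in both miR-15b rows.

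The use of the arms of a precursor is likewise free of scaling. Among 62 precursors with both arms named and at least 100 reads over both in each library, the interval of the 5p share of the Large White library lay below both others in 17 (27.4%) and above both in 3 (4.84%). For the Enshi black library the counts were 0 below and 6 above, and for the wild boar library 5 below and 11 above. Some of the 62 share reads, as the 3 precursors of miR-199 do. The distance from both others was at least 5 percentage points in 8 of the 20. The 3 precursors of miR-199 are among these 8, so the 8 are not independent. mir-374a and mir-374b are also among them, and the 5p arm of each holds reads shared with another name.

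The widest was mir-542, from the X-linked cluster of miR-424. Its 5p arm held 13.6% of the reads in the Large White (12.8 to 14.5), 30.8% in the Enshi black (29.7 to 31.9) and 49.0% for wild boar (47.7 to 50.3). There miR-542-5p lay below both other libraries, at −0.57 and −1.09, and miR-542-3p above both, at 0.93 and 1.52. In mir-374b the 5p share was 83.3%, 93.8% and 98.7%, and its 3p arm had only 50, 46 and 18 reads. In mir-361 it was 56.3%, 66.6% and 68.9%, and in mir-374a 85.1%, 94.2% and 94.5%. In mir-374a the Chinese libraries were 0.297 points apart and the Large White 9.06 points below the nearer. In mir-142 the 5p share was 13.4%, 18.1% and 20.8%, and in mir-22 1.75%, 2.66% and 2.67%. Of the precursors higher in the Large White, mir-140 had 16.8%, 12.3% and 6.53% and mir-423 66.4%, 61.8% and 61.3%.

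**Figure D5:**
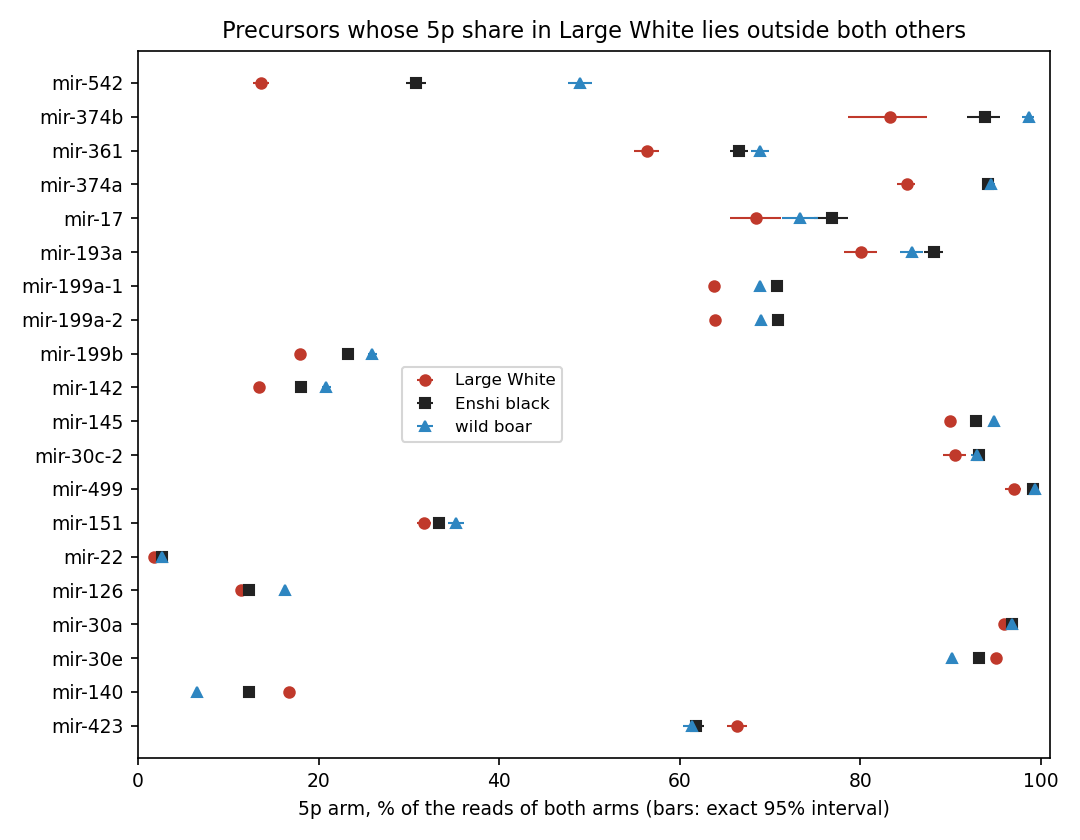
Each row is 1 of the 20 precursors whose 5p share of the reads of both arms (x axis, percent) in the Large White library has an exact 95% interval outside those of both other libraries. The Large White library is lowest in the upper 17 rows, from mir-542 at 13.6% against 30.8% and 49.0%, and highest in the lower 3.

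Below the minimum of 10 mean CPM, a further 109 miRNAs had a count, and by the same rule the Large White library was past 2-fold above both others in 13 of them (11.9%) and past 2-fold below both in 3 (2.75%). Those named here were chosen after their values were seen. miR-153, a neural miRNA, had 83 reads in the Large White, 2 in the Enshi black and 10 in the wild boar library. miR-124a, another neural miRNA below the minimum, was not called and had 0, 1 and 81 reads. The muscle miRNAs miR-499-3p and miR-206 had 45, 13 and 7 reads and 32, 8 and 17 reads. miR-34c, a p53 target, had 90, 41 and 55 reads. The 3 lower miRNAs were miR-31 with 22, 94 and 67 reads and, from the DLK1-DIO3 cluster, miR-382 with 17, 60 and 120 and miR-323 with 3, 23 and 48. No miRNA had at least 10 reads in both Chinese libraries and at most 1 in the Large White, or the reverse.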

How the data were processed

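Small RNA of 14 to 40 nucleotides from liver was sequenced as reads of 50 bases, per the labels' protocols. The submitters' processing notes name Sscrofa 10.2 as the build. No aligner, counter or miRNA annotation is named in the labels or headers. The deposited files hold expected counts, per the file headers as read counts for each of 486 pairs of mature miRNA and precursor, and some of the values are fractional. The RPM values that the authors deposited beside them were not used.

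Counts were summed per mature name, so a read counted on several precursors of a name would enter the sum more than once. The 6 names that repeat another name's reads were left out, and sums were rounded. Of these, the 208 at or above 10 CPM, as the mean over the libraries on library totals, were compared, of which 65 hold reads shared with another name (sums farther than 0.05 from a whole count). Totals of 7343033 (Large White), 7730934 (Enshi black) and 7824836 (wild boar) were scaled by TMM factors of 0.772, 1.20 and 1.08 (edgeR 4.0.16, R 4.3.3). Ratios have exact conditional-binomial 95% intervals (scipy 1.17.1). A miRNA was called where both ratios were at least 2-fold on the same side and both intervals left out 1. The computation was tested on simulated data. Reads carry no molecular identifiers, so intervals cover counting error only, and the labels give no replicates.

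Named miRNAs were all those called, the 3 nearest to the threshold inside and outside, the most extreme on library totals, up to 4 members per group and the arms and neighbours of those called. Further group members were named after their values were seen. The members, the groups and the tests were chosen with earlier results of these data known. Alternatives were other scalings (DESeq2 1.42.0 size factors among them), filters, fold thresholds and thinning.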

Additional observations from a re-analysis of the deposited data

How the results depend on the processing

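Of the 16 miRNAs, none moved to the other side of either library under any scaling tried. The 12 higher and 4 lower became 3 and 28 on library totals, 4 and 21 on totals without miR-122, and 1 and 45 per count of miR-122, an alternative chosen after seeing the data. They were 10 and 6 with DESeq2 size factors, which kept 10 of the 12 and all 4. A single factor moves all ratios of a pair together, so scalings that raise the Large White total lengthen the lower list. Without an expression filter the counts were 25 and 7, and at 100 mean CPM 8 and 1. At 4-fold they were 1 and 1, at 1.5-fold 35 and 19, and with no fold threshold, but both intervals still leaving out 1, 70 and 67. Thinning to the smallest total kept all 12 and 4, leaving out miRNAs with shared reads gave 10 and 3, and keeping all deposited names gave 11 and 6. On library totals, an alternative also chosen after seeing the data for these, the arms and neighbours on the same side as their member went from 9 to 5 and those on the opposite side from 1 to 2. Without miR-122 in the total, the 12 held 23.5%, 10.9% and 9.87% of the reads of the Large White, Enshi black and wild boar libraries, and the 4 held 0.0511%, 0.173% and 0.178%, against 0.0300%, 0.114% and 0.108% of all reads. Base composition was not analysed here, so the alternatives that take off a trend on it were not run. No paired analysis was possible because each breed has 1 library.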
